A study of Drosophila melanogaster with 21 samples.

Results

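The 35 genes described here make or use the light response of the fly eye. They comprise the opsins, the G protein, phospholipase, channels and scaffold of phototransduction, the retinoid genes that supply the chromophore, the genes that build the rhabdomere, and the transcription factor Pph13. They were picked by gene symbol from the 17612 genes of the count table. RNA was sequenced from pools of 20 dissected male brains, with 3 biological replicates in each of 7 groups and 21 libraries in all. Set 1 held control and miR-34 mutant brains, each at 3d and at 20d, where d is days of adult age. Set 2 was made up of controls only, aged 3d, 20d and 50d. Control flies were a w1118 stock, and mutants carried a deletion of the miR-34 gene on the third chromosome in a w1118 background, so every group carried the w1118 allele of white, the eye pigment transporter gene. Each replicate pooled brains, so differences between single flies were not measured.

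In a fly photoreceptor, light isomerizes the retinal chromophore of an opsin held in the rhabdomere, a stack of microvilli. The opsin activates a Gq protein, which turns on the phospholipase C norpA, and the lipid signal opens the TRP and TRPL cation channels. Arrestins end the response, and the inaD scaffold holds channel, phospholipase and kinase together. Outer photoreceptors carry Rh1, the product of ninaE. Inner photoreceptors of the R7 type carry Rh3 or Rh4, those of the R8 type carry Rh5 or Rh6, and Rh2 is the opsin of the ocelli. Rh5 and Rh6 also occur in the small extraretinal eyelets, and some members, such as Galphaq, inaE, rdgB and Calx, are expressed in other neurons too.

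Total counts were 17932132 to 23109013 per library in set 1 and 30890607 to 43713430 in set 2, and all 35 members passed the filter on low counts in both sets. The labels give the tissue as brain, yet ninaE alone held 1.25% to 4.12% of the counts in a library. Levels are given as CPM, counts scaled to a common library total with TMM factors, which set the typical gene equal between libraries, so each fold change is relative to the median gene. lncRNA:CR43459, the transcript that spans miR-34 on 3R, had 182 to 822 counts in control libraries and 15243 to 23664 in the mutant libraries, so its level separated the genotypes in all 21 libraries. Mature miR-34 itself is not captured by polyA selection.

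Members moved together between replicates of set 1. The summed level of 10 photoreceptor-restricted members (ninaE, Rh3, Rh4, Rh5, trp, inaD, inaC, ninaC, Arr2 and chp) differed by 2.21 times among the 20d mutant replicates. Between the lowest and the highest library of set 1 it differed by 2.30 times. Over all 21 libraries, in sets that were scaled separately, it differed by 3.20 times. It was at its lowest, 21016 CPM, in 20d mutant replicate 1 and, at 25977 and 29038 CPM, in 20d control replicates 1 and 3, against 45138 CPM in 20d control replicate 2. Within the 20d mutants the median member varied with an SD of 0.496 on the log2 scale, against 0.115 for all genes tested, and within the 20d controls these were 0.385 and 0.13. In the 20d controls 32 of 35 members were highest in replicate 2, and in the 20d mutants 32 were highest in replicate 3. Set 2 was more even at 3d, with a median SD of 0.0746 for members and 0.106 for all genes. Retinal support markers summed to 918, 1251 and 924 CPM in 20d control replicates 1 to 3. In the 20d mutants they summed to 745, 965 and 1070 CPM. Fat body markers had 272, 649 and 320 CPM and 228, 296 and 409 CPM in the same libraries. Both followed the library order of the photoreceptor sum, as did blood cell markers. Muscle, glial and neuron markers did not follow it in both groups. The source of these orders was not tested. Fewer photoreceptor cells on the dissected brain and less RNA per cell cannot be told apart in such bulk samples.

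**Figure D1:**
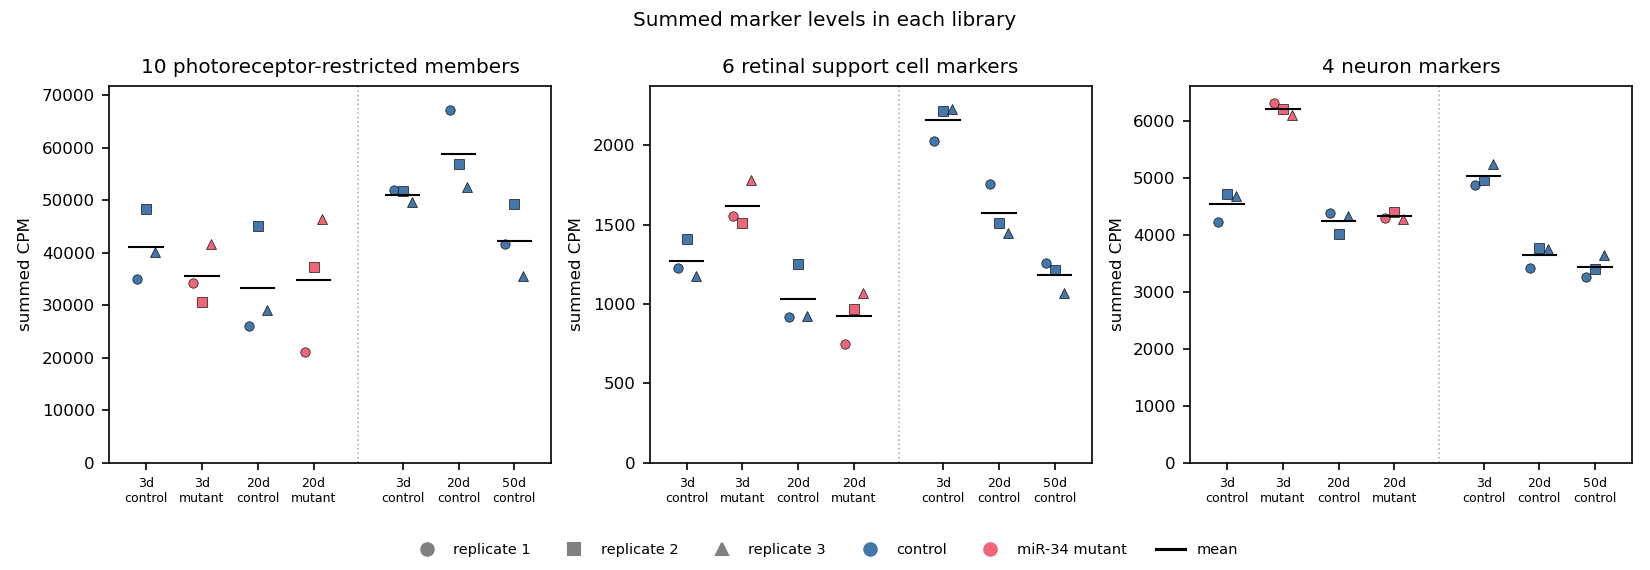
Summed CPM per library (points, replicate number by shape) with the group mean (bar) for the 10 photoreceptor-restricted members, 6 retinal support cell markers and 4 neuron markers. In set 1 the photoreceptor sum ranged from 25977 to 45138 CPM among the 20d controls and from 21016 to 46400 CPM among the 20d mutants, while the neuron sum stayed within 4020 to 4409 CPM in the same libraries. The retinal support sum ranged from 918 to 1251 CPM among those controls and from 745 to 1070 CPM among those mutants.

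The first comparison asked which members differed between miR-34 mutant and control brains at each age. At 3d, 8 members were higher and 3 lower in the mutant, 31.4% of the 35, against a background in which 31.4% of the 9961 genes tested were called, 16.5% higher and 15.0% lower. At 20d, 2 were higher and 4 lower, 17.1% against 32.1% of all genes (16.6% higher and 15.4% lower), so the members were not called more often than other genes at either age. The groups did not overlap for 20 members at 3d, against 48.6% of all genes, and for 7 at 20d, against 42.7%. The median member log2 fold change was 0.18 at 3d and 0.05 at 20d, against -0.02 and -0.01 for all genes. The 5 members called in the same direction at both ages were Rh6, Rh4 and pinta, which were lower, and ninaD and rdgB, which were higher. Of all genes, 5.52% were called lower and 7.48% higher at both ages, against 8.57% and 5.71% of the members.

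Rh6, the green-absorbing opsin of most R8 cells (FBgn0019940, 3R from 15483158 to 15484699, BDGP6.54 annotation), showed the largest difference of any member. The 3d controls had 422, 631 and 505 CPM in replicates 1 to 3, and the 3d mutants 26.5, 28.6 and 35.6 CPM. At 20d the controls had 365, 714 and 502 CPM and the mutants 16.5, 30.8 and 35 CPM. Every mutant library lay far below every control library, those of set 2 included. The log2 fold change was -4.10 ± 0.36, adjusted p = 5.85e-05 at 3d and -4.27 ± 0.36, adjusted p = 4.33e-05 at 20d (edgeR, SE, 3 libraries per group), or 17.2-fold and 19.3-fold lower. Rh6 was still detected in every mutant library. Both calls held in every alternative run, with or without each library.

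Rh4, a UV opsin of one class of R7 cells (FBgn0003250, 3L from 16852527 to 16862517), was lower in the mutants as well. The 3d controls had 852, 1188 and 973 CPM and the 3d mutants 423, 401 and 536 CPM. The 20d controls had 809.7, 1501 and 973 CPM and the 20d mutants 271, 453 and 545 CPM. The groups did not overlap at either age, with log2 fold changes of -1.14 ± 0.31, adjusted p = 0.0212 and -1.37 ± 0.31, adjusted p = 0.00889. The 3d call was lost without 3d control replicate 2 (-1.01, adjusted p = 0.0634), 3d mutant replicate 1 (-1.10, adjusted p = 0.0711) or 3d mutant replicate 2 (-1.06, adjusted p = 0.0725). The 20d call was lost in a fit of the compared groups alone (-1.37, adjusted p = 0.0544).

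Rh3, the UV opsin of the other R7 class, had 662, 805 and 647 CPM in 3d controls and 625, 555 and 694 CPM in 3d mutants, and 539, 825 and 545 CPM against 334, 629 and 742 CPM at 20d. Its groups overlapped at both ages, with log2 fold changes of -0.17 ± 0.29, adjusted p = 0.69 and -0.17 ± 0.29, adjusted p = 0.704. Rh5, the blue opsin of the remaining R8 cells, had 214, 292 and 242 CPM against 231, 185 and 246 CPM at 3d and 193, 319 and 194 CPM against 187, 338 and 431 CPM at 20d, also with overlap. Its log2 fold changes were -0.17 ± 0.32, adjusted p = 0.715 and 0.43 ± 0.32, adjusted p = 0.339. Neither opsin was called, and each is the counterpart of one that fell.

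ninaE, which encodes the major opsin Rh1, had 19301, 27292 and 22454 CPM in 3d controls and 15029.7, 13114 and 18458 CPM in 3d mutants, groups that did not overlap, but it was not called (-0.56 ± 0.32, adjusted p = 0.216). At 20d the values were 15511, 26793 and 17329.8 CPM and 11643, 21362 and 27098 CPM, with full overlap (0.01 ± 0.32, adjusted p = 0.987). Rh2, the ocellar opsin (FBgn0003248, 3R from 18899423 to 18901019), had 478, 434 and 506 CPM in 3d controls and 293, 323 and 281 CPM in 3d mutants, which did not overlap and were not called (-0.66 ± 0.23, adjusted p = 0.0619). At 20d it had 286, 635 and 402 CPM in controls and 210.2, 189.6 and 209 CPM in mutants and was lower (-1.12 ± 0.24, adjusted p = 0.0062), a call lost in a fit of the compared groups alone (-1.12, adjusted p = 0.0561). The 20d mutants were close to each other in Rh2 but spread widely in ninaE.

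**Figure D2:**
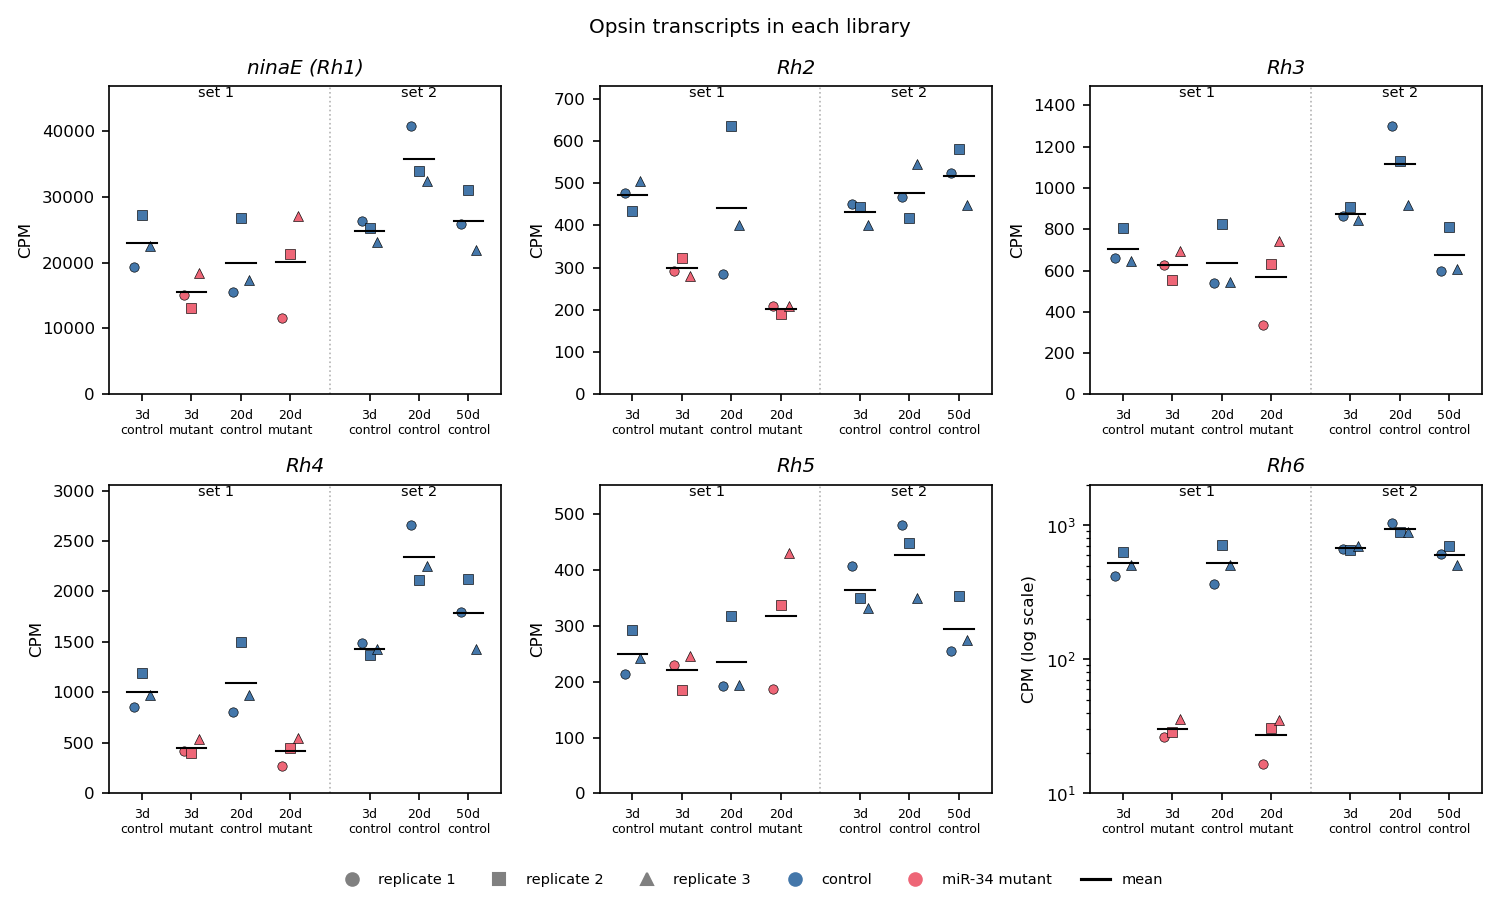
CPM of the 6 opsins in each of the 21 libraries (points, replicate number by shape), with the group mean (bar), on linear axes except for the log axis of Rh6. All mutant libraries lie at 16.5 to 35.6 CPM of Rh6, while the controls lie at 365 CPM or above.

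Ratios within a library set the paired opsins side by side without the amount of photoreceptor RNA. Per transcript length, Rh6/Rh5 was 2.32 ± 0.107 in 3d controls and 0.154 ± 0.0233 in 3d mutants (mean ± SD, 3 libraries), and 2.5 ± 0.386 against 0.0971 ± 0.0058 at 20d. Rh4/Rh3 was 1.47 ± 0.122 against 0.746 ± 0.0489 at 3d and 1.76 ± 0.179 against 0.779 ± 0.051 at 20d. Control and mutant libraries did not overlap in either ratio. Against ninaE, Rh5 was 0.011 ± 0.000214 in 3d controls and 0.0144 ± 0.00103 in 3d mutants, and trp was 0.0304 ± 0.00185 and 0.0731 ± 0.00267. Set 2 3d controls, of the same genotype and age as the set 1 3d controls, had 0.0148 ± 0.000843 of Rh5 and 0.0597 ± 0.00873 of trp against ninaE, nearer the set 1 3d mutants than the set 1 3d controls. These ratios are descriptions with no test.

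**Figure D3:**
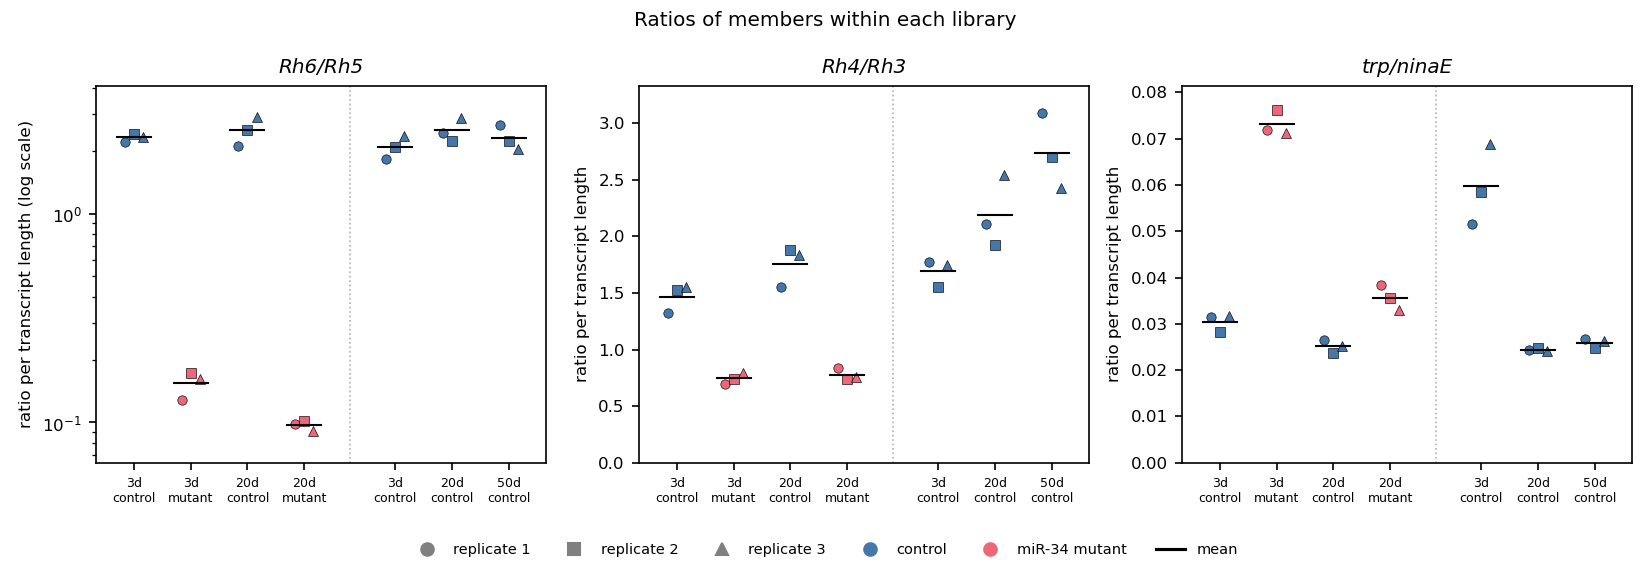
Ratio per transcript length of Rh6 to Rh5 (log axis), Rh4 to Rh3 and trp to ninaE in each library (points, replicate number by shape), with the group mean (bar). The Rh6/Rh5 ratio was 0.0907 to 0.173 in the mutant libraries and 1.83 to 2.89 in the control libraries of both sets.

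Among the genes of chromophore supply and opsin maturation, ninaD, a class B scavenger receptor for carotenoid uptake (FBgn0002939, 2L from 18081628 to 18083608), was higher in the mutant. It had 8.04, 8.7 and 11.8 CPM in 3d controls and 24.3, 30.5 and 33.7 CPM in 3d mutants. At 20d it had 1.44, 2.1 and 2.01 CPM in controls and 11.5, 12.6 and 9.91 CPM in mutants. The log2 fold changes were 1.63 ± 0.16, adjusted p = 1.16e-05 and 2.61 ± 0.20, adjusted p = 7.7e-07, with no overlap. ninaD was a gene of low level, and it is used in the gut as well as in the head. ninaB, the carotenoid oxygenase that makes retinal, was higher at 3d (0.54 ± 0.11, adjusted p = 0.00254) and not at 20d (0.05 ± 0.11, adjusted p = 0.782).

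pinta, a retinoid-binding protein of retinal pigment cells (FBgn0038966, 3R from 22423316 to 22424929), had 42, 61.3 and 50.6 CPM in 3d controls and 21.2, 20.5 and 24.7 CPM in 3d mutants and was lower (-1.21 ± 0.34, adjusted p = 0.0266). At 20d it had 34.1, 82.6 and 60.2 CPM in controls and 18.9, 31.8 and 36 CPM in mutants, whose ranges overlapped (-1.03 ± 0.34, adjusted p = 0.0451). Its calls were weak: the one at 3d was lost without any of 5 libraries, with adjusted p = 0.0551 to 0.0835, and the one at 20d without any of 5 libraries, with adjusted p = 0.0552 to 0.129. The libraries concerned were 3d control replicates 2 and 3, all 3d mutants, 20d control replicates 2 and 3 and all 20d mutants. santa-maria (-0.12 and -0.07), the chaperone gene ninaA (-0.15 and 0.34) and ninaG (0.13 and 0.47) were not called at 3d or 20d.

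In the lipid cycle, 3 of 6 members were higher in 3d mutants. rdgA, the diacylglycerol kinase (FBgn0261549, X from 8907068 to 9029476), had 579.9, 709.8 and 678 CPM in 3d controls and 1231, 1186 and 1455 CPM in 3d mutants (0.98 ± 0.14, adjusted p = 0.000379). At 20d it had 426, 508 and 454 CPM and 372, 508 and 539.8 CPM, which overlapped (0.03 ± 0.14, adjusted p = 0.898). rdgB, a phosphatidylinositol transfer protein, was higher at 3d (0.66 ± 0.07, adjusted p = 6.55e-06) and at 20d (0.26 ± 0.07, adjusted p = 0.00823). inaE, a diacylglycerol lipase, was higher at 3d (0.34 ± 0.07, adjusted p = 0.00204), with -0.12 ± 0.07, adjusted p = 0.216 at 20d. norpA (0.12 and -0.04), the CDP-diacylglycerol synthase gene Cds (0.18 and -0.16) and the lipid phosphatase gene laza (0.32 and -0.20) were not called at either age.

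The other called members at 3d were eys, Calx and Galphaq. eys, which encodes the matrix protein that opens the space between rhabdomeres, was higher (0.83 ± 0.10, adjusted p = 3.06e-05) and was 0.12 ± 0.10, adjusted p = 0.365 at 20d. Calx, the sodium/calcium exchanger, was higher by 0.34 ± 0.10, adjusted p = 0.0217, a call lost without 3d control replicate 1 (0.28, adjusted p = 0.0942) or 3d mutant replicate 3 (0.27, adjusted p = 0.0854). Galphaq, the Gq alpha subunit, was higher by 0.19 ± 0.06, adjusted p = 0.0232, a call lost without 3d control replicate 1 (0.15, adjusted p = 0.0984), 3d mutant replicate 1 (0.18, adjusted p = 0.0751) or 3d mutant replicate 3 (0.17, adjusted p = 0.0853). Of the 7 signalplex and deactivation genes 0 were called in either comparison by edgeR, and only ninaC had an unadjusted p under 0.05 (0.0405 at 3d and 0.0248 at 20d). Their log2 fold changes ran from -0.48 for Arr1 to 0.75 for ninaC at 3d and from -0.04 for Arr2 to 0.85 for ninaC at 20d, and DESeq2 called ninaC at 20d. The channel gene trp was 0.70 ± 0.26, adjusted p = 0.0721 at 3d and trpl -0.06 ± 0.40, adjusted p = 0.934. In the rhabdomere, chp (chaoptin) was 0.75 ± 0.32, adjusted p = 0.111 and prom 0.73 ± 0.30, adjusted p = 0.0932.

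The 3d controls of set 2, of the same genotype and age, lay nearer the 3d mutants than the 3d controls of set 1 in rdgA, eys and Calx, and nearer the 3d controls in rdgB, inaE, ninaB, Galphaq and ninaD. They had 1033, 1376 and 1392 CPM of rdgA and 454, 571 and 573 CPM of eys. For eys the set 1 values were 317, 371 and 366 CPM in 3d controls and 582, 585 and 700.1 CPM in 3d mutants. Their trp per transcript length was 0.0597 ± 0.00873 of ninaE, against 0.0304 ± 0.00185 in the 3d controls and 0.0731 ± 0.00267 in the 3d mutants of set 1. For Rh6 and Rh4 the set 2 controls lay with the set 1 controls instead, at 667, 650.3 and 698 CPM and 1485, 1371 and 1428 CPM. The sets were scaled separately, so these values stand side by side with no test.

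**Figure D4:**
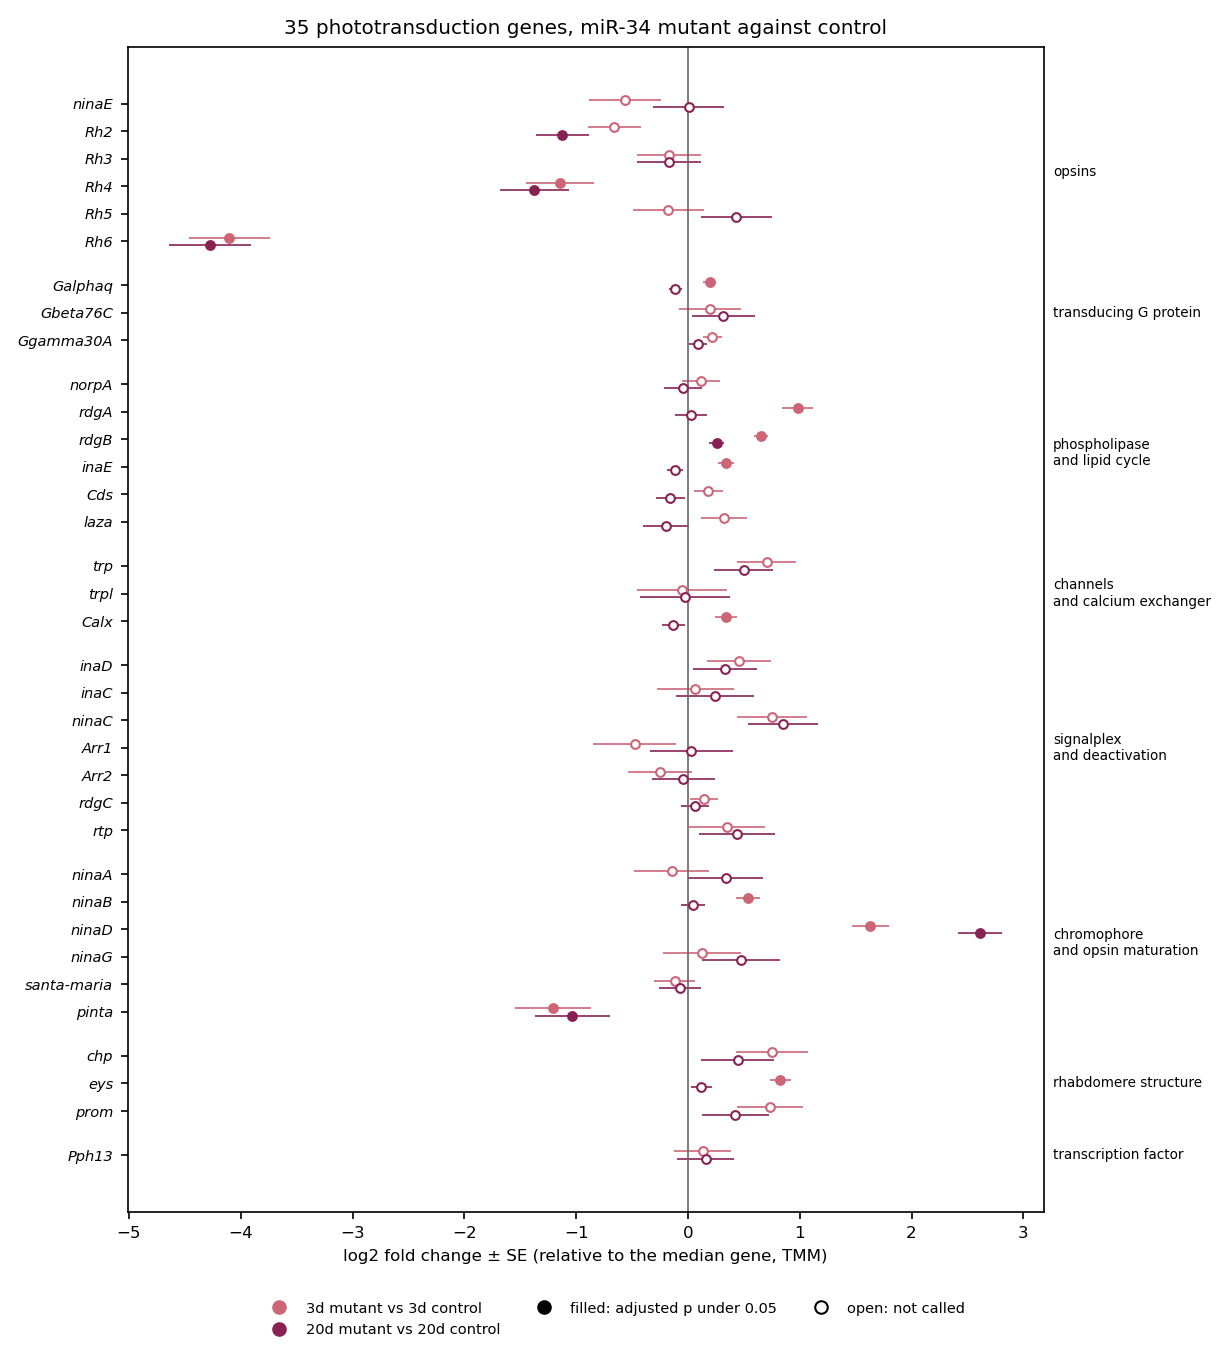
log2 fold change ± SE of the 35 members, miR-34 mutant against control at 3d and 20d, ordered by role, with filled points for adjusted p under 0.05. Rh6 lies near -4.10 at 3d and -4.27 at 20d and ninaD at 1.63 and 2.61, while most members lie close to 0.

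Some markers of other cell types also differed between the genotypes, where 31.4% of all genes were called at 3d and 32.1% at 20d. All 4 neuron markers were higher in every 3d mutant library than in any 3d control, 3 of them called, and their sum was 6107 to 6317 CPM in 3d mutants against 4234 to 4724 CPM in 3d controls. Of the 6 retinal support markers 3 were called higher at 3d, and their sum was 1513 to 1782 CPM against 1176 to 1409.7 CPM. Of the 5 fat body markers tested 3 were called lower at 3d, with sums of 314 to 449.7 CPM in 3d mutants and 391 to 813 CPM in 3d controls. Of the 4 glial markers 2 were called higher and 1 lower at 3d, with sums of 1335 to 1392 CPM in mutants and 1065 to 1227 CPM in controls. At 20d, 2 glial markers were called higher and 2 lower, with sums of 719 to 741 CPM in mutants and 876 to 932 CPM in controls, while 3 of 5 fat body and 2 of 6 retinal support markers were called lower and 1 of 4 neuron markers higher. Of the 4 blood cell markers 1 was called lower at 3d and 0 were called at 20d. Of the 5 muscle markers tested 1 was called higher at 3d and 0 were called at 20d. The share called at 20d was 33.3% for retinal support and 25% for neuron markers, near or below that of all genes. The part of these marker changes in the members' differences was not tested. Scaled to the photoreceptor-restricted members instead of TMM, 1 member (ninaD) was called higher at 3d and 3 (Rh6, Rh4 and pinta) lower, and at 20d ninaD was called higher and Rh6, Rh4, Rh2 and pinta lower. Calls became fewer over all genes as well, to 2.1% higher and 2.49% lower at 3d and 2.31% and 2.41% at 20d. That scaling was added after the data were seen.

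Leaving out both 20d libraries that stood apart, control replicate 2 and mutant replicate 1, changed the 20d comparison: 17 members (48.6%) were then called higher and 3 (8.57%) lower, against 18.0% and 16.4% of 10053 genes, and norpA (0.29) and Arr2 (0.48) turned from just below 0 to called higher. Removing the highest control and the lowest mutant raises every such difference by construction. Without mutant replicate 1 alone, 4 were called higher. Rh6 (-3.73), Rh4 (-0.84), Rh2 (-0.79) and ninaD (2.71) remained called in the setting without both libraries.

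Of 39 other genes of the pathway, 37 were tested and 6 were called higher and 0 lower at 3d (0 lower at an unadjusted p under 0.05), and 6 higher and 5 lower at 20d. These were 16.2% and 29.7% of those tested, against 31.4% and 32.1% of all genes, so they were not called more often than other genes. Among the genes called, the largest changes at 3d were those of qsm, a light-response gene of clock cells (1.49 ± 0.18), and Dgkepsilon, a diacylglycerol kinase (0.57 ± 0.08). At 20d they were those of qsm (1.25 ± 0.17) and Dgkepsilon (0.45 ± 0.08) among the higher, and Trpgamma, a TRP channel (-2.29 ± 0.34), and e, the beta-alanyl transferase ebony of glial histamine recycling (-0.78 ± 0.07), among the lower. Their median log2 fold change was 0.10 at 3d and 0.07 at 20d.

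The second question was how the members changed with age in control brains. In set 2, 6 members were higher and 21 lower at 20d than at 3d, 77.1% of the 35 against 39.2% of 10525 genes tested (19.3% higher and 19.9% lower). From 20d to 50d, 17 were lower and 0 higher (1 at an unadjusted p under 0.05 and 0 by DESeq2), 48.6% against 9.72% (5.51% higher and 4.21% lower), and from 3d to 50d 3 were higher and 24 lower, 77.1% against 50.8% (25.9% higher and 24.9% lower). These comparisons share libraries. The groups did not overlap for 29, 24 and 28 members in that order, against 51.2%, 28.9% and 58.6% of all genes. The median member log2 fold change was -0.40 at 20d and -0.69 at 50d against 3d, and that of all genes 0.01 and 0.02.

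The 6 members higher at 20d in set 2 were pinta, Rh4, ninaE, Rh6, ninaG and santa-maria, a scavenger receptor of the retinoid pathway. pinta rose from 42.5, 44.7 and 47.2 CPM to 99.4, 97.3 and 101 CPM (1.14 ± 0.07, adjusted p = 6.31e-07) and was 58.3, 67.6 and 57.8 CPM at 50d. Rh4 rose from 1485, 1371 and 1428 CPM to 2657, 2114 and 2256 CPM (0.71 ± 0.13, adjusted p = 0.00123), ninaE from 26281, 25221 and 23057 CPM to 40695, 33972 and 32434 CPM (0.52 ± 0.14, adjusted p = 0.01), and Rh6 from 667, 650.3 and 698 CPM to 1043, 897 and 894 CPM (0.49 ± 0.11, adjusted p = 0.00427). At 50d Rh4 had 1795, 2124 and 1431 CPM, ninaE 25840.1, 30982 and 21978 CPM and Rh6 606, 707 and 502 CPM, so the mean of each opsin was nearer its 3d level again. Rh3 had 863, 909.8 and 843 CPM at 3d, 1299, 1132 and 916 CPM at 20d and 599, 812 and 608 CPM at 50d. Rh5 had 408, 351 and 333 CPM, 481, 449 and 349.9 CPM and 256, 355 and 275 CPM, and Rh2 451, 444 and 402 CPM, 468, 418 and 545 CPM and 524, 582 and 449 CPM, the only opsin with its highest mean at 50d.

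Most of the transduction machinery was lower at 20d in set 2. Scaling to the photoreceptor-restricted members turned none of these directions but left only 11 of the 21 lower members called. That was 31.4% of all members, against 4.23% of all genes called lower. However, trp, inaD, inaC, ninaC and chp help to set that scaling, so their place below 0 under it is partly built in. It is therefore no separate test of their fall. Relative to the median gene, all 3 channel and exchanger genes, all 3 G protein genes and all 3 rhabdomere genes were called lower. So were 5 of 6 lipid cycle genes and 5 of 7 signalplex genes, whereas 3 opsins were called higher. rdgA fell from 1033, 1376 and 1392 CPM to 573, 562 and 534 CPM (-1.19 ± 0.11, adjusted p = 9.28e-06) and stayed at 503, 573 and 507 CPM at 50d. eys fell from 454, 571 and 573 CPM to 293, 275 and 294 CPM (-0.90 ± 0.09, adjusted p = 1.58e-05). ninaD had 6.81, 5.92 and 10.7 CPM at 3d, 4.45, 3.09 and 2.49 CPM at 20d (-1.23 ± 0.25, adjusted p = 0.00216) and 2.38, 2.59 and 2.79 CPM at 50d. trp (-0.76 ± 0.12, adjusted p = 0.00035) and norpA (-0.70 ± 0.09, adjusted p = 6.34e-05) were lower too. The calls of trpl (-0.40) and rtp (-0.35), retinophilin, a protein that works with ninaC, were lost without any one of 3d control replicates 2 and 3 and 20d control replicates 2 and 3, with adjusted p = 0.0575 to 0.0774 for trpl and 0.122 to 0.131 for rtp.

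Between 20d and 50d, 6 of 7 signalplex genes were lower relative to the median gene, whereas 0 members were called lower and 13 higher when libraries were scaled to the photoreceptor-restricted members. That scaling called 77.2% of all genes higher and 0.409% lower, so the 37.1% of members called higher lay below the share of all genes. trpl fell from 3391, 3014 and 2948 CPM to 1796, 2093 and 1561 CPM (-0.78 ± 0.12, adjusted p = 0.00218) and inaD from 794, 733 and 639 CPM to 430.2, 470.5 and 383 CPM (-0.75 ± 0.09, adjusted p = 0.000643). Rh3 (-0.73 ± 0.14, adjusted p = 0.0103) and Rh6 (-0.64 ± 0.11, adjusted p = 0.00508) were lower and so was pinta (-0.70 ± 0.07, adjusted p = 0.00027). The call of Rh3 was lost without 50d control replicate 3 (-0.66, adjusted p = 0.0552). The call of norpA was lost without any of 20d control replicates 1 and 2 and 50d control replicates 1 and 3 (adjusted p = 0.0622 to 0.0999), and that of Arr2 without any of the same libraries (adjusted p = 0.0687 to 0.0814). Ggamma30A lost its call without any of the 6 libraries (adjusted p = 0.0581 to 0.114), and Calx without any but 20d control replicate 1 (adjusted p = 0.0769 to 0.139).

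Over the whole span, 50d against 3d, the largest falls were those of ninaD (-1.59 ± 0.25, adjusted p = 0.000254), chp (-1.48 ± 0.13, adjusted p = 1.98e-06), the eye-specific G protein beta subunit gene Gbeta76C (-1.41 ± 0.12, adjusted p = 2.06e-06) and ninaC, the myosin III kinase (-1.38 ± 0.11, adjusted p = 1.14e-06). chp went from 1741, 2110.3 and 2164 CPM to 675, 854 and 639 CPM, Gbeta76C from 1235, 1339 and 1361 CPM to 495, 577 and 410.5 CPM, and ninaC from 3798, 4519 and 4649.7 CPM to 1659, 1861 and 1486 CPM, with no overlap. pinta (0.45), santa-maria (0.39) and ninaG (0.27) were higher. Rh3 was lower (-0.38 ± 0.14, adjusted p = 0.0432), a call lost without any of 3d replicates 1, 2 and 3 and 50d replicates 1 and 3, with adjusted p = 0.0714 to 0.153, and that of ninaG was lost without any of 3d replicates 1 and 3 and 50d replicates 1 and 2, with adjusted p = 0.0531 to 0.117. Without 50d control replicate 3, 5 members were called higher. ninaE (0.08), Rh2 (0.26), Rh4 (0.32), Rh5 (-0.31), Rh6 (-0.16), laza (-0.19), ninaA (0.05) and Pph13 (-0.04) were not called.

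These directions with age are relative to the median gene. The photoreceptor-restricted sum itself was 49679 to 51989 CPM at 3d, 52546 to 67191 CPM at 20d and 35544 to 49322 CPM at 50d in set 2. When libraries were scaled to those 10 members, the median of all genes moved to 0.21 at 20d against 3d, 0.59 at 50d against 20d and 0.82 at 50d against 3d. At 50d against 3d it called 14 members (40.0%) higher and 9 (25.7%) lower, against 77.7% and 2.2% of all genes. Among members called under one scaling or the other, directions then turned for 18 at 50d against 20d and for 13 at 50d against 3d, the latter being Rh3, Rh5, Rh6, Arr1, Arr2, ninaB, rdgB, rdgC, Galphaq, Ggamma30A, inaE, laza and Pph13. ninaD, chp, Gbeta76C, ninaC, inaD, trp, trpl, rdgA and prom remained called lower at 50d against 3d under both scalings, and pinta, santa-maria and ninaG remained called higher. Of these, chp, ninaC, inaD and trp are among the 10 members that set the second scaling, so their place below 0 under it is partly built in.

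**Figure D5:**
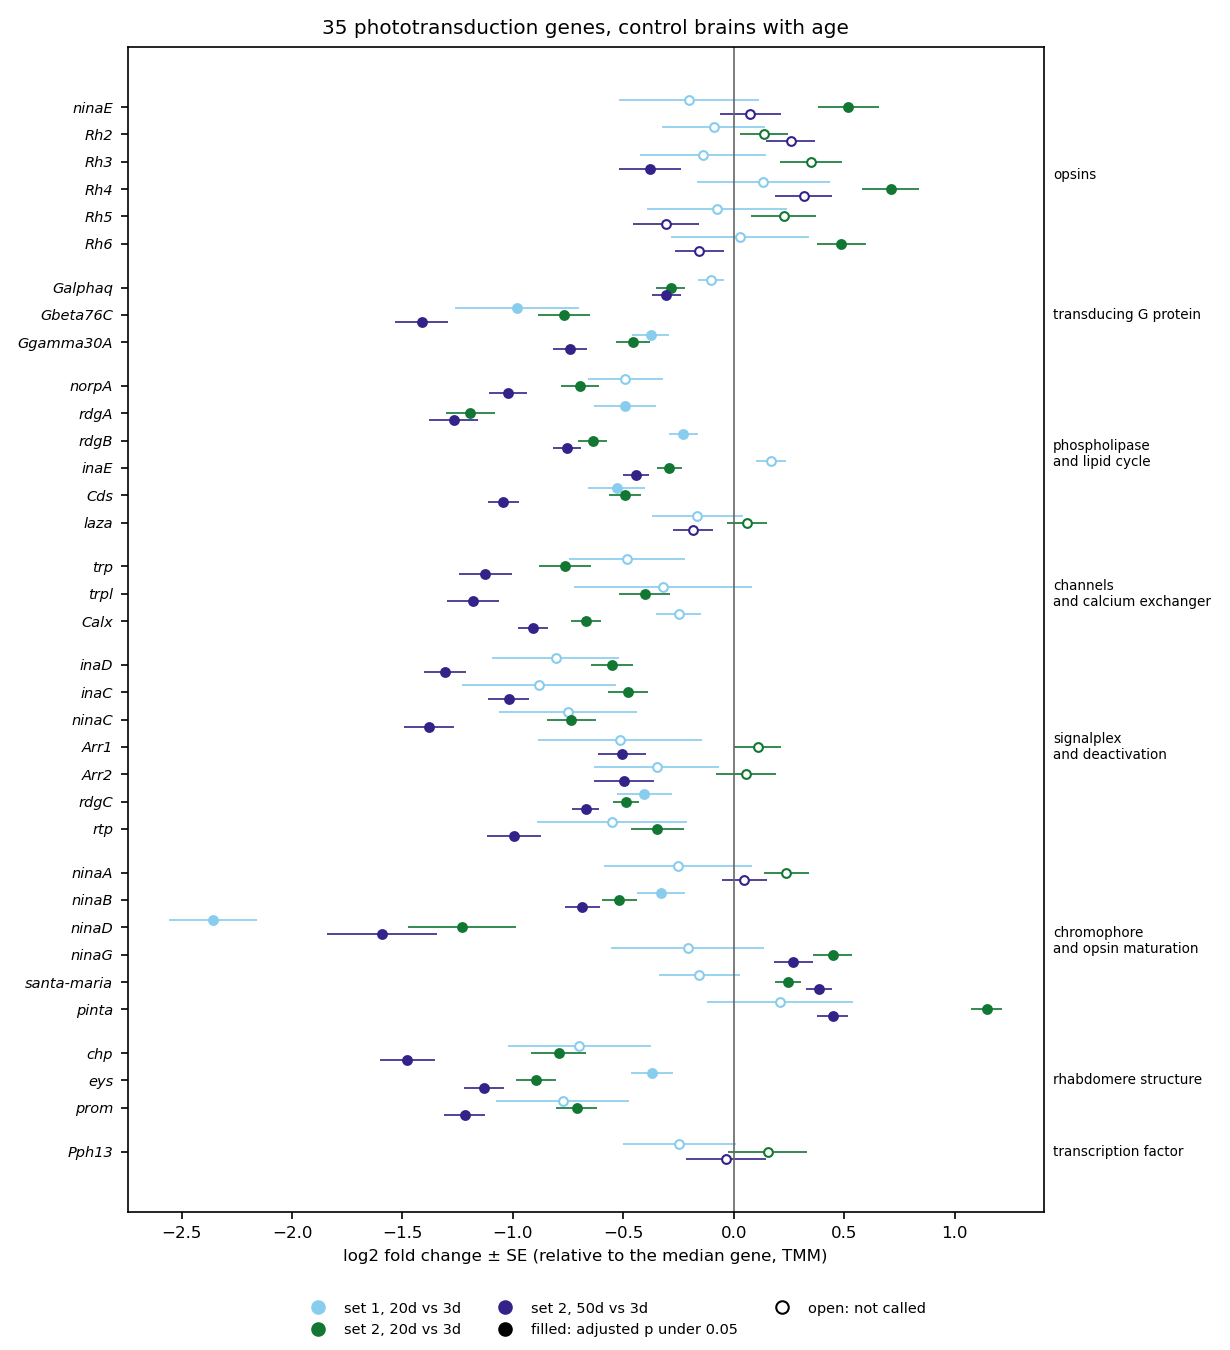
log2 fold change ± SE of the 35 members with age in control brains, for 20d against 3d in set 1 and set 2 and 50d against 3d in set 2, ordered by role, with filled points for adjusted p under 0.05. Values are relative to the median gene. Scaling to the photoreceptor-restricted members turned the direction of 6 members in set 1 and of 13 at 50d against 3d, counting members called under either scaling. Some of the 13, such as Rh5 and Rh6, are open points here. pinta lies at 1.14 and ninaD at -1.23 in set 2 at 20d.

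Within a library of set 2, trp per transcript length was 0.0597 ± 0.00873 of ninaE at 3d, 0.0244 ± 0.000344 at 20d and 0.0259 ± 0.00102 at 50d, and Rh4/Rh3 was 1.69 ± 0.12, 2.19 ± 0.316 and 2.74 ± 0.333. Rh6/Rh5 was 2.08 ± 0.258, 2.5 ± 0.319 and 2.31 ± 0.309, with overlap among the ages. Neuron markers fell as well, 4 of 4 at 20d and at 50d against 3d, with sums of 4877 to 5249.5 CPM at 3d, 3423 to 3766 CPM at 20d and 3265 to 3646 CPM at 50d. Retinal support markers summed to 2025 to 2225 CPM at 3d and 1068 to 1259.7 CPM at 50d. Between these ages 3 of 6 were called lower and 1 higher, with log2 fold changes from -4.17 to 0.55. Fat body markers summed to 962 to 1347 CPM at 3d, 330.0 to 410.5 CPM at 20d and 52.3 to 97.7 CPM at 50d, with 2 of 5 called lower and 1 higher at each later age. Glial markers summed to 992 to 1119.7 CPM at 3d, 723 to 770.3 CPM at 20d and 719 to 737 CPM at 50d. Against 3d, 1 of 4 was called lower and 1 higher at 20d, and 2 lower and 1 higher at 50d. Of all genes 39.2% were called at 20d and 50.8% at 50d against 3d. Their part in the members' change was not tested.

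In set 1 controls 9 members were lower and 0 higher at 20d than at 3d, 25.7% of the 35 against 24.6% of 9961 genes (11.3% higher and 13.3% lower). The groups did not overlap for 16 members, against 38.2% of all genes. By DESeq2 0 were higher, and 1 had an unadjusted p under 0.05. ninaD had 8.04, 8.7 and 11.8 CPM at 3d and 1.44, 2.1 and 2.01 CPM at 20d (-2.36 ± 0.20, adjusted p = 1.21e-05), and Gbeta76C 718, 975 and 836 CPM and 333, 577 and 364 CPM (-0.98 ± 0.28, adjusted p = 0.0353). The other called genes were rdgA (-0.49), rdgB (-0.23), rdgC (-0.40), a rhodopsin phosphatase, ninaB (-0.33), Ggamma30A (-0.38), Cds (-0.53) and eys (-0.37). All 9 were also called lower in set 2, whose libraries are separate, where they made up 9 of 27 called. The rises of set 2 did not recur as calls, since 0 members were called higher here. Of the 6 opsins 0 were called in set 1, with log2 fold changes from -0.20 to 0.13. In the test of the difference between sets 0 opsins were called either. Of the 1326 genes called lower in set 1 and tested in both sets, 71.5% were called lower in set 2 as well, and 9.58% of all 9896 genes were called lower in both, against 25.7% of the members. Calls of 7 of the 9 were lost without 1 library, and the count ranged from 2 without 20d control replicate 3 to 14 without 20d control replicate 2, with 3 without 3d control replicate 2, 5 without 3d control replicate 3 and 4 without 20d control replicate 1. Without 3d control replicate 3, 1 member was called higher. Scaled to the photoreceptor-restricted members, which moved the median of all genes to 0.53 and called 3.84% of all genes higher and 0.351% lower, 1 (ninaD) was called lower, and ninaB, rdgA, rdgB, rdgC, Ggamma30A and eys turned to above 0.

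In the mutants 17 members were lower and 0 higher at 20d than at 3d, 48.6% against 46.0% of all genes (22.8% higher and 23.2% lower). The groups did not overlap for 21 members, against 57.2% of all genes. rdgA had 1231, 1186 and 1455 CPM at 3d and 372, 508 and 539.8 CPM at 20d (-1.45 ± 0.14, adjusted p = 1.18e-05), ninaD 24.3, 30.5 and 33.7 CPM and 11.5, 12.6 and 9.91 CPM (-1.37 ± 0.16, adjusted p = 1.95e-05), prom, a prominin of the rhabdomere, 142, 134 and 176 CPM and 42.3, 75.7 and 94.7 CPM (-1.09 ± 0.30, adjusted p = 0.0169), and eys 582, 585 and 700.1 CPM and 263, 293 and 328 CPM (-1.08 ± 0.10, adjusted p = 1.7e-06). Groups did not overlap for these genes. All 6 lipid cycle genes, all 3 G protein genes and all 3 rhabdomere genes were called lower, though Galphaq and inaE turned to above 0 under the photoreceptor scaling, and the opsins were not called. Calls of inaD, chp, Gbeta76C, laza and prom were lost without 3d mutant replicate 3, with adjusted p = 0.055 to 0.102. Those of inaD, chp and Gbeta76C were also lost without 3d mutant replicate 1 or 20d mutant replicate 2, those of chp, Gbeta76C and laza without 20d mutant replicate 1, that of laza without 20d mutant replicate 2 and that of Gbeta76C without 3d mutant replicate 2, with adjusted p = 0.0506 to 0.0789. By DESeq2 and at an unadjusted p under 0.05 the count of higher members was 0 too, and without 20d mutant replicate 1 it was 1. Scaled to the photoreceptor-restricted members, which moved the median of all genes to 0.51 and called 14.7% of all genes higher and 1.46% lower, 1 member (rdgA) was called lower and 1 (Rh5, 0.89) higher. Rh5 itself helps to set that scaling, so its call is no separate test.

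The change with age differed between the genotypes for 8 members by the test of the difference itself, 22.9% against 18.6% of all genes (8.29% above 0 and 10.3% below). The change was more negative in the mutant for rdgA (-0.95 ± 0.20, adjusted p = 0.00759), eys (-0.71 ± 0.14, adjusted p = 0.00338), rdgB (-0.40 ± 0.09, adjusted p = 0.00905), inaE (-0.45 ± 0.10, adjusted p = 0.00596), ninaB, Calx and Galphaq, and less negative for ninaD (0.98 ± 0.26, adjusted p = 0.0184). The same age contrast differed between the sets for 5 members, 14.3% against 7.76% of 10367 genes (2.44% above 0 and 5.31% below): rdgA (-0.70 ± 0.19, adjusted p = 0.0321), rdgB (-0.41 ± 0.09, adjusted p = 0.013), inaE (-0.46 ± 0.09, adjusted p = 0.0103), Calx (-0.42 ± 0.13, adjusted p = 0.0456) and eys (-0.53 ± 0.14, adjusted p = 0.0261) changed more negatively in set 2. In the other direction 0 were called by edgeR, 2 by DESeq2 and 2 at an unadjusted p under 0.05. Many of these calls rested on single libraries. In the genotype contrast, ninaB lost its call without any of 10 of the 12 libraries (all but 20d control replicate 1 and 20d mutant replicate 3), Calx without any of 8 (all but 3d control replicate 2, 3d mutant replicate 2 and 20d mutant replicates 1 and 3), Galphaq without 3d control replicate 1 or 3d mutant replicates 1 or 3, and ninaD without 20d control replicate 1 (0.83, adjusted p = 0.0525). In the set contrast, leaving out 1 library left as few as 2 of the 5 called lower (without set 1 3d control replicate 1, set 1 20d control replicate 1, set 2 3d control replicates 2 or 3, or set 2 20d control replicates 1 or 2, and 3 without set 1 20d control replicate 3), and 4 were called higher without set 1 20d control replicate 2 and 1 without set 2 3d control replicate 3 or set 2 20d control replicate 3. Neuron markers differed in the same way, 3 of 4 called lower in each of these contrasts, and their part was not tested. By edgeR 0 of these 13 differences were called when libraries were scaled to the photoreceptor-restricted members, though each kept its sign. That scaling left 0.833% of all genes called between the genotypes and 0.145% between the sets.

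Of the other pathway genes, 2 were called higher and 13 lower at 20d against 3d in set 2, 0 and 10 from 20d to 50d (3 higher at an unadjusted p under 0.05), and 5 and 16 from 3d to 50d. These were 40.5%, 27% and 56.8% of those tested, against 39.2%, 9.72% and 50.8% of all genes. Genes of histamine, the photoreceptor transmitter, its recycling and its receptors were called lower for 5 of 8 at 20d and 7 of 8 at 50d against 3d. The largest falls among the genes called over the whole span were those of Hdc, the histidine decarboxylase (-1.49 ± 0.09), and HisCl1, a histamine-gated chloride channel (-1.18 ± 0.09). Among the genes called higher, the gustatory receptor gene Gr28b (0.76 ± 0.24) and the TRP channel gene TrpA1 (0.61 ± 0.19) had the largest changes. In set 1 controls 5 were called higher and 6 lower, and in the mutants 0 and 11 (1 higher at an unadjusted p under 0.05). Each total was 29.7% of those tested, against 24.6% of all genes in set 1 controls and 46.0% in mutants.

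Exons of inaD, ninaA, ninaB, santa-maria, rtp, Cds and eys overlap a gene on the opposite strand, and those of Galphaq overlap one on the same strand, so their counts are less certain, since the strand setting of the counting is not given in the sources used here. Among the members, 11 lie on 3R, 9 on 2L, 6 on 3L, 5 on 2R and 4 on X.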

How the data were processed

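Polyadenylated RNA from dissected male brains was sequenced from stranded TruSeq libraries in 21 samples. Per the labels and the study's methods, the authors aligned reads with HISAT2 and made the deposited gene counts with HTSeq, and they tested them with DESeq2. The strand setting of the counting is not given in the sources used here. Counts were used as deposited. Genes passing filterByExpr (minimum count 10) were fitted with edgeR 4.0.16 (R 4.3.3; TMM, robust quasi-likelihood) within set 1 (9961 genes) and set 2 (10525), and jointly over the 7 groups (10367) for the difference between sets. P-values were Benjamini-Hochberg adjusted over all genes tested, with 0.05 as the threshold. Groups came from the labels, which name separate biological replicates of pooled brains. Named genes were the 6 opsins and, per comparison, the 4 members with the largest change among those called whose groups did not overlap, and other members were named by role. The members and lists were chosen with earlier results of these data known. Alternatives included DESeq2 1.42.0, other filters and scalings, a replicate block and leaving out each library. Scripts were tested on simulated data. Positions are from the BDGP6.54 annotation.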

Additional observations from a re-analysis of the deposited data

Results flagged for a closer look

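The change from 3d to 20d differed between mutant and control brains, by the test of the difference itself in edgeR, for 8 members. These were 22.9% of the members, against 18.6% of all genes. Calls of ninaB, Calx, Galphaq and ninaD were lost without single libraries. Scaled to the photoreceptor-restricted members, 0 were called, against 0.833% of all genes. The log2 difference, mutant change minus control change, was -0.95 ± 0.20, adjusted p = 0.00759 for rdgA, -0.71 ± 0.14, adjusted p = 0.00338 for eys, -0.49 ± 0.15, adjusted p = 0.043 for ninaB, -0.47 ± 0.14, adjusted p = 0.0376 for Calx, -0.45 ± 0.10, adjusted p = 0.00596 for inaE, -0.40 ± 0.09, adjusted p = 0.00905 for rdgB, -0.31 ± 0.08, adjusted p = 0.0224 for Galphaq and 0.98 ± 0.26, adjusted p = 0.0184 for ninaD.

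The same change in controls differed between the sets for 5 members, 14.3% against 7.76% of all genes. Of these calls 3 were lost without single libraries. Scaled to the photoreceptor-restricted members, 0 were called, against 0.145% of all genes. The log2 difference, set 2 minus set 1, was -0.70 ± 0.19, adjusted p = 0.0321 for rdgA, -0.53 ± 0.14, adjusted p = 0.0261 for eys, -0.46 ± 0.09, adjusted p = 0.0103 for inaE, -0.42 ± 0.13, adjusted p = 0.0456 for Calx and -0.41 ± 0.09, adjusted p = 0.013 for rdgB. These 5 members also appear among the 8 above, and both contrasts use the set 1 controls.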

How the results depend on the processing

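Leaving out each library in turn gave 6 to 8 members higher and 1 to 3 lower in 3d mutants, and 2 to 4 and 3 to 4 in 20d mutants. It gave 0 to 1 higher and 2 to 14 lower with age in set 1 controls, 0 to 1 and 12 to 18 in mutants, and 0 to 1 and 4 to 7 for the difference between them. In set 2 it gave 6 to 7 and 19 to 21 at 20d, 0 and 12 to 18 from 20d to 50d, and 2 to 5 and 23 to 26 at 50d against 3d, with 0 to 4 and 2 to 5 for the difference between sets. Of all genes it called 22.4% to 26.9% in 3d mutants and 24.9% to 32.7% in 20d mutants. With age it called 15.3% to 25% in set 1 controls, 36.9% to 42.3% in mutants and 12.3% to 21.4% for their difference. In set 2 these shares were 29.7% to 35.1%, 5.27% to 7.09% and 42.9% to 47% in the order above, and 2.39% to 14% between sets. In fits of the compared groups alone, 5 members were lower in 3d mutants and 1 (Rh6) in 20d mutants, and for the difference between sets DESeq2 called 2 higher and a minimum of 10 counts in every library 1. Of all genes, the fits of compared groups called 1664 of 9536 lower at 3d and 1149 of 9689 at 20d. In either direction they called 35.6% and 25.6%. That fit of compared groups was not run for the difference between genotypes, which uses all 4 groups of the set.

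The following settings were chosen after seeing the data. Scaling to the 10 photoreceptor-restricted members shifted the median of all genes by -0.07 and -0.10 (3d and 20d mutants), 0.53 and 0.51 (age in set 1 controls and mutants), 0.21, 0.59 and 0.82 (set 2), -0.02 (genotype difference) and -0.25 (set difference). It gave 1 higher in each mutant comparison, 0 higher and 1 lower in set 1 controls with age, 1 and 1 in mutants, 0 and 0 for the genotype difference, 11 lower at 20d in set 2, 13 higher and 0 lower at 50d against 20d, 14 and 9 at 50d against 3d, and 0 lower for the set difference. Of all genes it called 77.2% higher and 0.409% lower at 50d against 20d, 77.7% and 2.2% at 50d against 3d, 21.5% and 4.23% at 20d against 3d in set 2, 0.833% for the genotype difference and 0.145% for the set difference. Log2 fold changes turned above 0 in set 1 controls for ninaB (0.18), rdgA (0.0269), rdgB (0.31), rdgC (0.11), Ggamma30A (0.14) and eys (0.18). They did so in mutants with age for Galphaq (0.0761) and inaE (0.22). They did so at 50d against 20d for norpA (0.27), inaC (0.0471), Arr2 (0.0448), ninaA (0.39), ninaB (0.43), ninaG (0.40), rdgA (0.52), rdgB (0.48), rdgC (0.41), Galphaq (0.57), Ggamma30A (0.32), inaE (0.44), Calx (0.35), Cds (0.0405), laza (0.35), eys (0.36), prom (0.0814) and Pph13 (0.39). They did so at 50d against 3d for Rh3 (0.39), Rh5 (0.47), Rh6 (0.61), Arr1 (0.27), Arr2 (0.28), ninaB (0.11), rdgB (0.0386), rdgC (0.12), Galphaq (0.49), Ggamma30A (0.0542), inaE (0.35), laza (0.60) and Pph13 (0.73). The construction makes those 10 members constant on balance, so this setting cannot show a common fall. Leaving out 20d control replicate 2 and 20d mutant replicate 1 gave 17 members higher in 20d mutants (48.6%, against 18.0% of all genes) and 3 lower (8.57% against 16.4%). It gave 22 lower in set 1 controls with age (62.9% against 14.4%). In mutants with age it gave 2 higher (5.71% against 21.9%) and 19 lower (54.3% against 22.9%). For the genotype difference it gave 7 higher (20.0% against 11.1%) and 5 lower (14.3% against 12.7%). It turned norpA (0.29) and Arr2 (0.48) in 20d mutants. These libraries were the highest control and the lowest mutant, so their omission raises the 20d difference by construction.

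Replicate numbers were not treated as pairs: the correlations of same-numbered deviations were 0.3, 0.222 and 0.0209 for 20d mutants and controls, and no comparison had all of them above 0.1. For 50d against 20d in set 2 they were 0.226, 0.0906 and 0.332. With 3 replicates per group such correlations cannot exclude a pairing. With the replicate block, 10 members were higher and 3 lower in 3d mutants, 3 and 4 in 20d mutants, 0 and 11 with age in set 1 controls, 0 and 18 in mutants, 7 and 21, 0 and 20, and 3 and 24 in the set 2 comparisons. Of all genes the block fit called 32.6%, 33.1%, 25.2% and 46.9% in the set 1 comparisons and 42.4%, 12.2% and 52.8% in set 2, in the same order. Of 4620 member values under alternatives, 41 changed sign with a call before or after. The median member SD was widest in the 20d groups of set 1, 0.385 and 0.496 on the log2 scale.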
